A study of Homo sapiens with 2 samples.

Results

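PCNP encodes the PEST proteolytic signal-containing nuclear protein, a small nuclear protein that is ubiquitinated by the E3 ligase UHRF2 and has been linked to cell proliferation. Its transcripts were examined here as a substrate of RBFOX2-INSCRIBE, an in situ assay in which a cytidine deaminase is brought to an RNA-binding protein inside fixed cells. All listed C-to-U edit sites and all isoform models of locus PB.11868, on the plus strand of chromosome 3 (hg38, annotated gene 101574180 to 101594465), were taken as its members by that locus identifier. The locus itself was chosen by measured values, namely its listed edit sites, with results of both libraries already known. Site counts and differences between the libraries are therefore descriptions, and none was tested. PCNP held 53 of the 121930 sites listed for the RBFOX2 library and 11 of the 103684 sites listed for the enzyme-only library, and it was 1 of 12178 loci listed in either library.

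The cells were HEK293T, a human embryonic kidney line whose name the labels also write as HEK293XT, and they were fixed before the assay. One sample received an anti-RBFOX2 antibody and a recombinant fusion of the deaminase APOBEC1 with a nanobody that recognizes the antibody. The enzyme-only control received the fusion without that antibody, so no antibody directed the conversions listed there. The paper attributes conversions in its buffer-only controls to damaged RNA or to errors of reverse transcription or PCR. It also subtracted those controls to lessen noise from endogenous C-to-U editing in cells. No buffer-only library was among the samples used here. Editing by the added enzyme, endogenous editing and such damage or errors were therefore not told apart in either library. Both were sequenced as PacBio full-length cDNA, with 1 library for each treatment. They therefore cannot be compared against any spread between replicates, and all intervals below are exact 95% intervals that cover counting error only. Intervals on shares of sites or cytosines and on ratios of sites also treat positions as independent. Since 1 read can carry several conversions, positions may not be independent, and these intervals may be too narrow.

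RBFOX2 is a splicing regulator that recognizes UGCAUG, and in mRNA it is also found on 3'UTRs. APOBEC1 converts cytosine to uracil and prefers a cytosine that follows A or U. The conversion is read as a C-to-T change in the cDNA.

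The canonical PCNP transcript has 5 exons and encodes 178 residues. Its stop codon ends at 101592753 inside the last exon, which starts at 101592627, and the annotated 3'UTR runs from 101592754 to 101594465, a length of 1712 nt. The deposited models extend this 3'UTR to 1755 nt after the stop codon. Over that span 69.5% of the bases were A or U, against 49.6% of the exonic bases up to the stop codon. Positions in the last exon are given below as the distance after the stop codon.

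The following windows of hg38 show sites that the comparisons below turn on, namely ones with more converted reads, shared ones and coding ones. They are on the transcript strand with 10 nt on each side of the edited cytosine, which is the capital letter. The first 3 were listed in both libraries, the next 3 only in the RBFOX2 library and the last 2 only in the enzyme-only library.
364 nt after stop, both libraries: agttaactctCttaactccct
462 nt after stop, both libraries: gaactattgaCtgaaagtaaa
985 nt after stop, both libraries: ttgaattgaaCttaactatcg
1313 nt after stop, RBFOX2 library: cagcttcagaCtgttttattg
1246 nt after stop, RBFOX2 library: tagtcacagaCaaaagcatac
Codon 168, RBFOX2 library: aatataaaatCtcatcttgga
956 nt after stop, enzyme-only library: atttaaattaCtaacttatga
Codon 30, enzyme-only library: gcagaaaaacCtgtgaaaact

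PCNP was covered by 687 reads in the RBFOX2 library and 536 reads in the enzyme-only library, a ratio of 1.28 where the median over 8203 loci was 1.10. A site entered the deposited lists only where its converted reads exceeded a fraction of 0.002 of the reads of its gene, so at these depths a position had to be converted in 2 reads to be listed in either library. Summed over listed positions there were 153 conversions with RBFOX2 and 26 without the antibody, and 1 read can carry several. Per 1000 reads of the gene there were 77.1 sites and 223 conversions with RBFOX2, against 20.5 sites and 48.5 conversions without the antibody. Editing of PCNP was thus listed at more positions and with more conversions in the RBFOX2 library, also per read of the gene. Positions with 1 converted read are absent from these sums. The limit of 2 reads was a lower fraction of the deeper library, 0.291% with RBFOX2 against 0.373% in the control. Division by reads therefore does not fully remove the difference in depth.

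Each listed position was converted in few reads, and the deposited confidence score was near 0 at all of them. At a score of at least 0.5, a cut named in the methods for short-read edit sites and not for the long-read ones, 0 of the 53 RBFOX2 sites and 0 of the 11 enzyme-only sites remained, and 3.06% and 3.45% of all listed rows of the libraries did. Of the 53 RBFOX2 sites, 26 had 2 converted reads, 14 had 3, 8 had 4, 3 had 5 and 2 had 6. Of the 11 enzyme-only sites, 8 had 2 converted reads, 2 had 3 and 1 had 4. The edit fraction, which sets the converted reads over all reads of PCNP, ran from 0.291% through a median of 0.437% to 0.873% with RBFOX2, and from 0.373% through a median of 0.373% to 0.746% in the control. An unlisted position could still have had 1 converted read, and 1 read of 536 is 0.187% with an upper bound of 1.04%. For 0 of the 49 positions listed only with RBFOX2 did the lower bound exceed that value, so the libraries were not told apart at any such position alone, and the contrast lies in the number of positions.

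Of the 60 positions listed in either library, 4 were listed in both, which is 7.55% of the RBFOX2 sites and 36.4% of the enzyme-only sites. The shared positions included those with the most converted reads in each library. The cytosine at 462 nt (101593215) was converted in 6 RBFOX2 reads, 0.873% (0.321 to 1.89), and in 4 enzyme-only reads, 0.746% (0.204 to 1.90). That at 450 nt (101593203) had 5 and 3 converted reads. That at 985 nt (101593738) had 6 and 2 converted reads, and that at 364 nt (101593117) had 2 in each library. At all 4 shared positions the intervals of the libraries overlapped.

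Among the positions listed only with RBFOX2, the position at 101593754 and 1313 nt (101594066) had 5 converted reads each, or 0.728% (0.237 to 1.69). Those with 4 converted reads lay at 104, 360, 561, 960, 990, 1222 and 1246 nt in the 3'UTR and at codon 168. The one at 104 nt lies inside a tract of U, and the control-only site at 110 nt lies at the end of the same tract. The placement of a read there is less certain for both. The 7 positions listed only in the control were 110, 600, 956 and 1395 nt in the 3'UTR and codons 30, 107 and 156, and all had 2 converted reads except 956 nt, which had 3.

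**Figure D1:**
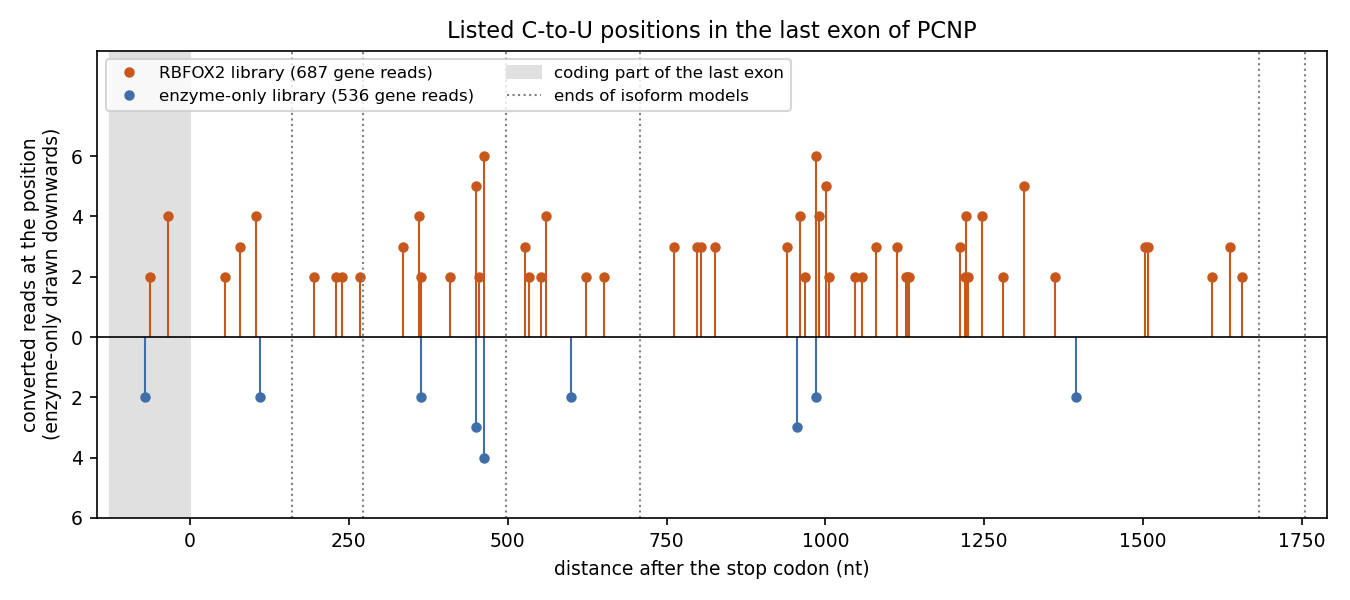
Converted reads at each listed position of the last exon of PCNP against the distance after the stop codon in nt, with the RBFOX2 library drawn upwards and the enzyme-only library downwards (1 library each). Dotted lines mark the ends of isoform models and the grey band the coding part. The RBFOX2 sites spread from 55 to 1655 nt with up to 6 converted reads, whereas 8 enzyme-only sites lie in the same 3'UTR.

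The RBFOX2 sites lay almost entirely in the 3'UTR. Of the sites listed in that library alone, 47 of 49 were in the 3'UTR, or 95.9% (86.0 to 99.5), and 2 were coding. Of the sites listed in the control alone, 4 of 7 were in the 3'UTR, or 57.1% (18.4 to 90.1), and 3 were coding. Some annotated transcripts place all of these coding positions in a 3'UTR, and where 3'UTR was given priority over coding sequence both shares were 100%, so this contrast depends on the annotation order. Among the other loci with 500 to 999 reads in both libraries, the depths at which 2 converted reads is the lowest number that can be listed, the 3'UTR held 49.0% of 5402 RBFOX2 sites and 38.2% of 3007 enzyme-only sites. Over the merged exons of all 26 isoform models, PCNP has 246 of its 635 exonic cytosines, 38.7%, in the 3'UTR. Of the 635, 363 lie before the last exon, but only 93 of those 363 are in canonical exons. The coding part of the last exon holds 26 more, against the 246 of the 3'UTR as the models extend it. Most cytosines of the canonical transcript therefore lie in the 3'UTR. For that transcript 38.7% is too low a reference for the shares of sites above, which exceed it in part for this reason.

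Counted per cytosine, 51 of the 246 3'UTR cytosines were listed with RBFOX2, or 20.7% (15.8 to 26.3), and 8 in the control, or 3.25% (1.41 to 6.31). These shares restate the site counts on which the locus was chosen. In the canonical exons before the last, the RBFOX2 library listed 0 of 93 cytosines (upper bound 3.89%) and the control listed 2, or 2.15% (0.262 to 7.55). The coding part of the last exon had 26 cytosines, of which 2 were listed with RBFOX2 and 1 in the control. No site of either library was in the 5'UTR.

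The coding positions differed in their consequence for the protein. With RBFOX2, the change at codon 158 (101592690, 2 reads) was synonymous and that at codon 168 (101592719, 4 reads) replaced the amino acid. In the control, the changes at codon 30 (101579814), codon 107 (101585476) and codon 156 (101592683) all replaced it, with 2 reads each. Both RBFOX2 coding sites were in the last exon, 63 and 34 nt before the end of the stop codon.

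Spacing within the 3'UTR follows from the number of sites and is given as a description. Neighbouring RBFOX2 sites were a median of 22.5 nt apart with a widest gap of 141 nt, and 17 neighbouring pairs were within 10 nt of each other. The 8 enzyme-only sites were a median of 138 nt apart with a widest gap of 410 nt, and 0 pairs were within 10 nt. One dense run of RBFOX2 sites, from 960 to 1005 nt, included 4 positions with 4 to 6 converted reads. Of these, the site at 985 nt was also listed in the control. Another run, at 1212, 1220, 1222, 1225 and 1246 nt, held no enzyme-only site. The control had only 8 sites in the 3'UTR and gaps of up to 410 nt, so the lack of one in a short run is not read as a contrast.

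Most listed sites followed A or U, the bases that APOBEC1 prefers before a cytosine. Which process made these sites was not tested. Of the sites listed only with RBFOX2, 47 of 49 followed A or U, or 95.9% (86.0 to 99.5), and in the control 6 of 7 did, or 85.7% (42.1 to 99.6). Among the 3'UTR cytosines themselves, 65.0% follow A or U. The corresponding share of sites in the other loci of 500 to 999 reads was 85.4% (84.4 to 86.3) with RBFOX2 and 75.2% (73.6 to 76.7) in the control.

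Seen from the cytosines, the listed share was graded by the preceding base. With RBFOX2, 36 of the 90 3'UTR cytosines after A were listed, or 40% (29.8 to 50.9). Of the 70 after U, 13 were listed, or 18.6% (10.3 to 29.7), of the 43 after C, 2 were listed, and of the 43 after G, 0 were. In the control, 6 of the 90 after A were listed, or 6.67% (2.49 to 13.9), and 2 of the 70 after U. By both neighbouring bases, ACU had the highest listed share of the 16 contexts with RBFOX2, at 21 of 39 cytosines, or 53.8% (37.2 to 69.9), followed by ACA, at 11 of 33, or 33.3% (18.0 to 51.8). In the control 6 of the 39 ACU cytosines were listed, or 15.4% (5.86 to 30.5), and 0 of the 33 in ACA. The windows printed above for 462, 956, 985 and 1313 nt are of this context.

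The 20 bases around an RBFOX2-only 3'UTR site were 71.3% A or U (SD 8.88 over 47 sites), and around the 3'UTR cytosines listed in neither library 69.1% (SD 10.03 over 191). The difference was not tested. The 4 control-only sites of the 3'UTR were at 85.0% (SD 10.8).

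**Figure D2:**
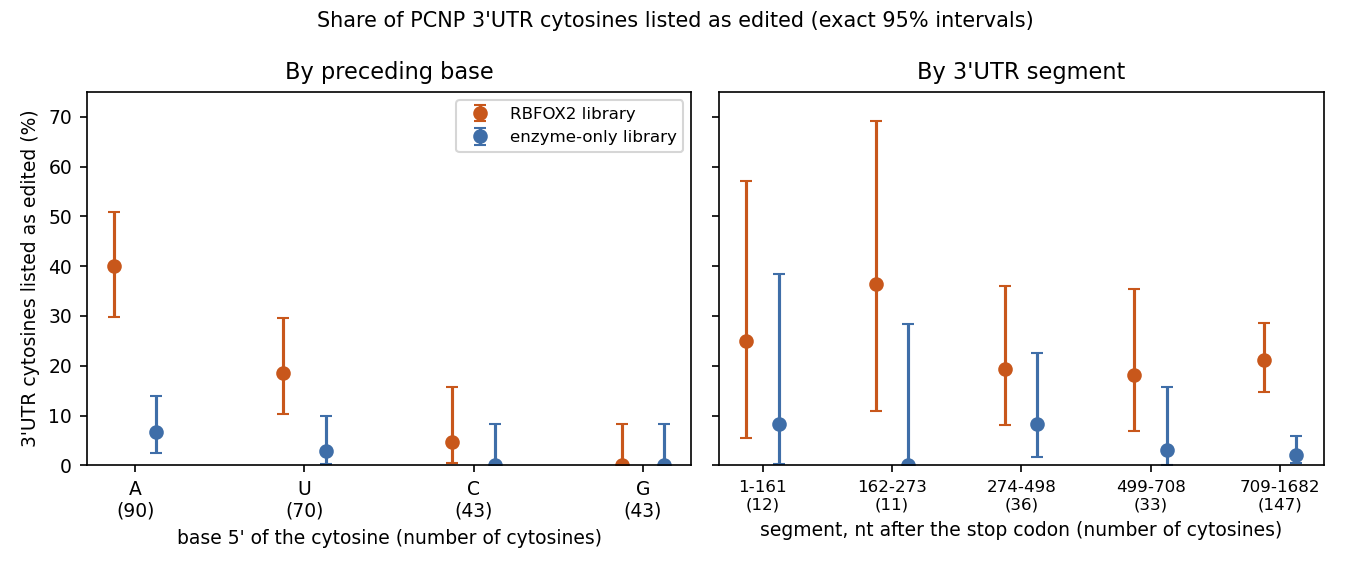
Share of PCNP 3'UTR cytosines listed as edited, in percent with exact 95% intervals, by the preceding base (left) and by segment of the 3'UTR between isoform ends (right), with the number of cytosines in parentheses. With RBFOX2, 40% of cytosines after A and 18.6% after U are listed, and the control is lower at each base where either library has a site. The last 73 nt of the longest model, with 7 cytosines and no site, are not drawn.

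The exons of PCNP do not contain the RBFOX2 motif. UGCAUG was searched on the transcript strand of hg38 and was found at 5 places in the locus, all of them intronic. The copy nearest to the last exon, at chr3:101591488-101591493, lies 1133 nt before that exon and 1197 nt from the nearest RBFOX2 site. Of the 635 exonic cytosines, 0 are within 200 nt of UGCAUG, so no exonic site of either library could lie near it. Of 10116 listed loci with isoform models, 5187 (51.3%) contain UGCAUG in an exon, as do 1684 (54.3%) of the 3103 loci within 1.2-fold of the 3243 exonic bases of PCNP. The paper estimates that edits of this assay reach at most 200 nt from the binding site. Whether RBFOX2 was bound to PCNP transcripts was not measured here.

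The shorter core GCAUG, which UGCAUG contains, occurs at 2 places in the exons. One, at chr3:101573820-101573824, is in the first exon of the model that starts farthest upstream, with no site nearby. The other, at chr3:101592672-101592676, is in the coding part of the last exon, 14 nt from the nearest RBFOX2 site, at codon 158, and 7 nt from the enzyme-only site at codon 156. Within 50 nt of GCAUG were 2 of the 49 RBFOX2-only sites and 1 of the 7 control-only sites, all of them coding.

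The 3'UTR does contain other pentamers that the study lists as RBFOX motifs. Searched on the transcript strand, GAAUG had 3 copies there, with 42 of the 3'UTR cytosines within 50 nt, and GUUUG had 3 copies, with 36. A further copy each was found of GCUUG, with 15 such cytosines, of GUAUG, with 10, of GUGUG, with 3, and of GCCUG, with 20, while GCACG, like GCAUG, had 0 copies in the 3'UTR. Together these 8 pentamers had 17 copies in the exons, 10 of them in the 3'UTR. Within 50 nt of such a copy lay 17 of the 47 RBFOX2-only 3'UTR sites, or 36.2%, and 111 of all 246 3'UTR cytosines, or 45.1%. For single pentamers the order varied, with 17.0% of the sites and 14.6% of the cytosines near GUUUG, and 14.9% and 17.1% near GAAUG. None of these differences was tested. In the control, 2 of 4 sites were within that distance.

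The locus had 26 isoform models, built from both libraries together, and they differ most in where their 3'UTR ends. From the stop codon outwards, 4 models end by 161 nt, 4 by 273 nt, 2 by 498 nt, 4 by 708 nt, 11 at 1682 nt and 1 at 1755 nt. RBFOX2 sites were listed in each segment between these ends except the last. They took 3 of 12 cytosines (25%) up to 161 nt, 4 of 11 (36.4%) up to 273 nt, 7 of 36 (19.4%) up to 498 nt, 6 of 33 (18.2%) up to 708 nt and 31 of 147 (21.1%, 14.8 to 28.6) up to 1682 nt. With 11 or 12 cytosines in each of the first 2 segments, whose intervals were 5.49 to 57.2 and 10.9 to 69.2, these shares cannot show whether the density of sites is even along the 3'UTR.

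The control had 1, 0, 3, 1 and 3 sites in the same segments. In the longest segment, 709 to 1682 nt, they took 2.04% of the cytosines (0.423 to 5.85). Converted reads in that segment summed to 91 with RBFOX2 and 7 in the control. The segment is present in 12 of the 26 models. Because reads were given for the gene as a whole and not per isoform, edit fractions there are understated in both libraries to an unknown degree, and the use of each isoform in either library was not measured.

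The editsC of an isoform, the share of its exonic cytosines listed as edited, was computed from the sites listed in 1 library only. A site was counted in every model whose exons cover its position, since no reads or edits were assigned to isoforms here. The paper assigned reads to isoforms, so its editsC is another measure. Differences between models within 1 library therefore reflect only which exonic bases each model covers. With RBFOX2 the value ran from 2.89% through a median of 10.2% to 17.9% over the 26 models. In the control it ran from 1.45% through a median of 2.06% to 3.23%. The value was higher with RBFOX2 in 26 of 26 models, which share most of their exons and sites and are not independent. All were scored from the same listed sites on which the locus was chosen, so this count is not read as a result. In the 4 models with the shortest 3'UTR the difference rested on 5 sites against 3 or 4. The median rose from 4.14% in the 4 models with the shortest 3'UTR to 6.91%, 7.60%, 9.96% and 14.6% in the next groups, and was 13.7% in the single longest model. In the control it was 2.88%, 2.82%, 2.05%, 2.32%, 1.78% and 1.68% in the same order.

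By construction editsC averages the many listed cytosines of the 3'UTR with the few of the coding part, and the 3'UTR and the upstream exons of a model both set its value. It was therefore not higher in every longer model, since PB.11868.1, ending at 1682 nt, had 10.1% and PB.11868.17, ending at 706 nt, had 10.4%. The highest value was in PB.11868.39, with 49 of 273 cytosines, a model that starts inside exon 3, and PB.11868.1, the model with the most cytosines, had 49 of 484. Since both carry the same 49 sites, their values differ only in the cytosines upstream. Models that skip an internal exon of the canonical transcript were also present, and the enzyme-only sites at codons 30 and 107 lay in exons skipped by some of them, while no RBFOX2 site did.

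**Figure D3:**
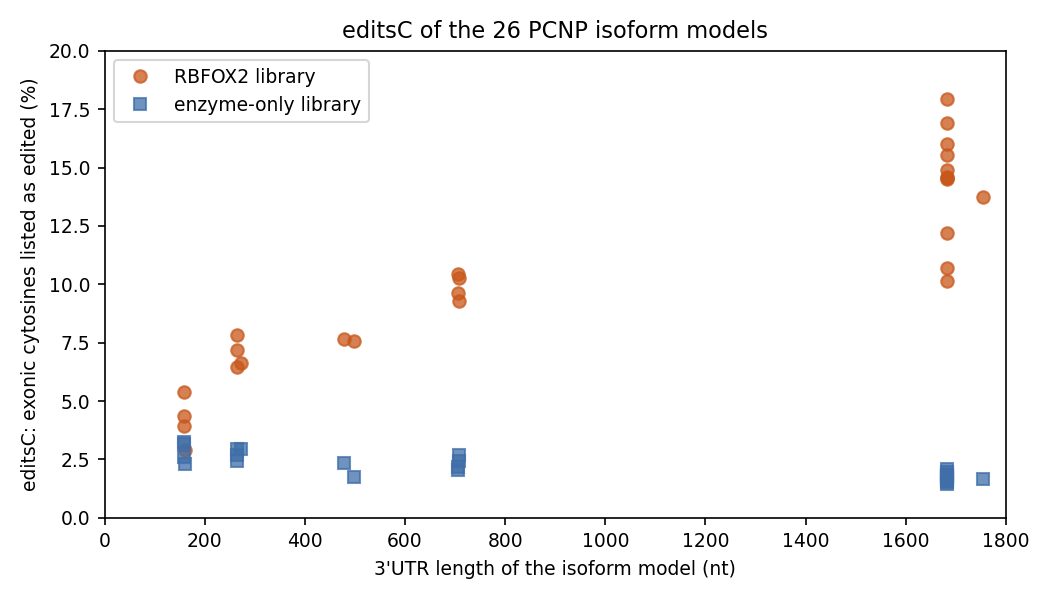
editsC of each of the 26 PCNP isoform models, in percent of exonic cytosines, against the length of its 3'UTR in nt, for sites listed in the RBFOX2 library only (circles) and in the enzyme-only library only (squares). Sites were placed on the models by position only. The RBFOX2 values run from 2.89% in a model with one of the shortest 3'UTRs to 17.9% in a model ending at 1682 nt. The control values lie between 1.45% and 3.23%.

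Compared with other loci, PCNP had many more RBFOX2 sites than the median locus of its depth, and slightly more control sites. Its 49 and 7 unshared sites gave a log2 ratio of 2.46 (1.39 to 3.93) after a pseudocount of 0.5 and scaling by the library totals of sites. This was the 61st highest of 3604 loci with at least 20 unshared sites, of which 16.8% had a log2 ratio over 1. These loci were not limited in depth, so the number of converted reads needed for listing differs among them. Among the 477 loci with 500 to 999 reads in both libraries PCNP ranked 18. Their median log2 ratio was 0.389, and 28.9% of them had a log2 ratio over 1. Because the locus was chosen on this contrast, nothing is read from these ranks.

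In that range of depth, loci had a median of 9 unshared RBFOX2 sites and at most 50, and PCNP ranked 2 with 49. For unshared enzyme-only sites the median was 5 and the highest 27, and PCNP, with 7, ranked 160 together with 28 loci in all at that number. Loci of this depth without UGCAUG in an exon had a median of 8 RBFOX2 sites and a median log2 ratio of 0.29, and the 271 with it had 10 sites and 0.47. PCNP was second among those without the motif.

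The 3 loci most like PCNP in unshared sites over the 2 libraries, among 652 with gene reads within 1.5-fold, were HNRNPH3, AHSA1 and TRA2B. HNRNPH3 (chr10:68331607-68343194), which encodes a heterogeneous nuclear ribonucleoprotein, had 50 RBFOX2 and 8 enzyme-only sites, a log2 ratio of 2.31 and 0 UGCAUG copies in its exons. AHSA1, an activator of the HSP90 ATPase, and TRA2B, a splicing factor, had 40 and 7 sites each and a log2 ratio of 2.17. Both have 2 UGCAUG copies in their exons, with 12 RBFOX2 sites of AHSA1 and 6 of TRA2B within 50 nt. The 3 loci were chosen for counts like those of PCNP, so their similar counts say nothing of the motif. Among the loci of 500 to 999 reads, 23.8% of the 206 without UGCAUG in an exon had a log2 ratio over 1. Of the 271 with it, 32.8% did, and this difference was not tested.

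**Figure D4:**
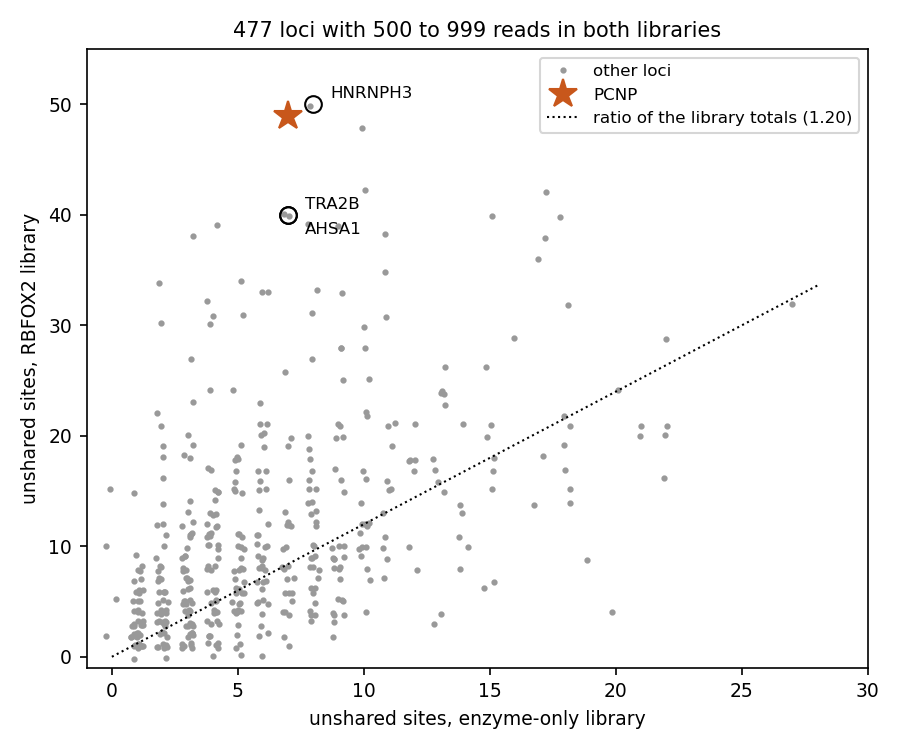
Unshared edit sites in the RBFOX2 library against those in the enzyme-only library for the 477 loci with 500 to 999 reads in both, with points shifted slightly at random so that ties are visible, and PCNP (star) and the 3 most similar loci marked. The dotted line is the ratio of the library totals of sites. PCNP lies at 49 and 7, and 1 locus, HNRNPH3, has more RBFOX2 sites.

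The ligase of PCNP with its paralogue, and the neighbours of PCNP on chromosome 3, are given for their own values, since PCNP was chosen for its contrast. UHRF2, the ligase, had 3 RBFOX2 and 8 enzyme-only unshared sites at 47 and 32 reads, a log2 ratio of -1.54 (-4.23 to 0.38). Its paralogue UHRF1, a regulator of DNA methylation maintenance, had 9 and 18 at 543 and 445 reads, a log2 ratio of -1.22 (-2.60 to -0.03), but at its depth a listed site needed 2 reads with RBFOX2 and 1 in the control.

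TRMT10C, a subunit of mitochondrial RNase P encoded upstream of PCNP on the same strand, had 58 and 28 unshared sites at 499 and 418 reads. Its log2 ratio was 0.77 (0.11 to 1.49). At its depths 1 converted read was enough for a site to be listed in either library, against 2 for PCNP, so the numbers of sites of these genes are not on the same footing. ZBTB11, a zinc finger protein gene on the opposite strand, had 1 and 4 unshared sites at 59 and 67 reads. No listed locus carried the symbol RPL24.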

How the data were processed

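Per listed site, the deposited tables hold counts of converted reads, counts of reads of the gene, and the authors' edit fraction, the former over the latter. Reads were not given per position or isoform. A confidence score per site, a fraction between 0 and 1 as deposited by the authors, was read and used only in an alternative. Per the methods, full-length reads were aligned to hg38 with pbmm2 and edits were called with the authors' own code. The labels name a PacBio Iso-Seq kit and the methods another kit, IsoQuant and replicates, so the run behind the tables is uncertain. The methods' removal of dbSNP variants was not repeated.

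Here sites were distinct positions. Sites in both libraries were left out except from counts of sites and conversions, edit fractions, spacing, cytosine shares and segments. Symbols and regions came from GENCODE 44 (bedtools 2.31.1), coding sequence before 3'UTR, and bases from hg38 (pysam 0.24.0). Intervals were Clopper-Pearson (scipy 1.17.1). The library reads summed to 2431345 (RBFOX2) and 2233600 (enzyme-only) over listed loci. Site calculations were tested on simulated data. PCNP, its members and the lists were chosen with earlier results of these data known. Positions were named if shared or among the 10 highest edit fractions of a library, ties included. UHRF2, UHRF1 and the neighbours TRMT10C, ZBTB11 and RPL24 formed fixed lists, and similar loci were the 3 nearest in log2 unshared sites.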

Additional observations from a re-analysis of the deposited data

How the results depend on the processing

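Of 47 alternatives, 21 could not move a value, because 13 repeated the listing limit at the depth of PCNP and 8 concerned a UGCAUG share that is 0 for every exonic cytosine. Of the other 26, 15 moved a value by less than its counting interval or a count by less than 1.5 times. The log2 ratio of sites stayed between 1.98, with shared sites kept, and 2.49. Leaving shared sites out of the counts gave 7 enzyme-only sites. Taking 3'UTR before coding sequence put 100% of the unshared sites of both libraries in the 3'UTR. Keeping shared sites raised the median editsC of the control to 3.00%. The remaining changes came from alternatives chosen after seeing the data. Requiring 3 converted reads left 27 RBFOX2 and 3 enzyme-only sites, with 100% of the unshared sites after A or U in both libraries and 100% of the control's, 1 site, in the 3'UTR. A confidence score of at least 0.5 left 0 sites in both libraries. No paired analysis was possible because each treatment had a single library. Depth limited single positions, where 2 converted reads of 536 gave 0.373% with an interval of 0.0452 to 1.34.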

Other observations

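The highest deposited confidence scores of PCNP sites were 3.05e-10 with RBFOX2 and 4.98e-09 in the control. A score of at least 0.5 was given to 3732 of 122035 listed rows (3.06%) of the RBFOX2 library and 3576 of 103776 (3.45%) of the enzyme-only library. How the score of the long-read sites was computed is not given in the sources used here, and its bearing on the PCNP sites was not tested.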
